A study of Mus musculus with 18 samples.

Results

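The meibomian gland is the lipid-secreting gland of the eyelid, and its response to testosterone was read here from 6 of the 18 arrays of a study of 3 glands: 3 labelled as testosterone-treated and 3 as placebo-treated meibomian gland. All mice were orchiectomised male BALB/c mice, so both groups lacked testicular androgen, and a hormone pellet with or without testosterone was given for 21 days. Age and pellet dose are not given in the sources used here. Each array held total RNA from 10 glands of 5 animals pooled, and pools A, B and C of a group were separate animals; the labels also state 4 animals per sex and experiment, which was not reconciled with this. Values are the deposited probe intensities on a linear scale with an array median between 0.9289 and 0.943, and no array type, scanner or scaling method is given in the sources used here. Of 10500 probes, 6334 were bright enough and complete enough to be tested, and 5603 of these named 1 of 5539 genes.

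Meibomian acinar cells are sebocytes: they fill with lipid, burst and release their whole content, called meibum, through a keratinised duct onto the tear film, where it slows evaporation. Meibum consists largely of wax esters, cholesteryl esters and long acyl chains made by elongases and desaturases. Testosterone and its reduced form dihydrotestosterone bind the androgen receptor, a nuclear receptor that sebocytes express, and androgens are known to support the lipid output of sebaceous glands.

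The labelled tissue was checked against marker genes. The sebocyte genes Cidea, Elovl3 and Plin2, of the lipid droplet and of long-chain fatty acid synthesis, measured 87.1 to 101, 99.01 to 105 and 92.9 to 97.6 in the placebo pools, among the brightest values of these arrays. Eyelid tissue around the acini was also present. Summed over 5 skeletal muscle markers the intensity was 194.3 to 235.2 in placebo and 171.8 to 233.5 in testosterone pools. The goblet cell mucin Muc5ac, a gene of the conjunctiva on the inner lid, measured 29.8 to 46.4 in placebo pools. The T cell gene Cd3e and the endothelial gene Cdh5 lay at or near 0 on all 6 arrays. Other markers of lymphocytes and vessels did not. The B cell gene Cd79a measured 3.727 to 4.656 in placebo and 4.736 to 5.63 in testosterone pools. The endothelial genes Pecam1 and Kdr were dim, at 0.2292 to 0.6007 and 0.3293 to 0.4998 over all pools. Absence of these cells therefore cannot be read from Cd3e and Cdh5.

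Features of the arrays bear on every result below. Array maxima were 134.6, 139.2 and 142.9 with placebo and 219.1, 178 and 147.7 with testosterone, each time in the order A, B, C, and the 99th percentile was also higher in each testosterone pool than in each placebo pool (exact two-sided permutation test, p = 0.1 for both, the smallest that 3 against 3 arrays allow). The medians did not differ in this way (p = 0.2, exact permutation test). Bright probes therefore read higher with testosterone as a class: the median log2 difference was -0.02 in the dimmest decile of the tested probes and 0.28 in the brightest. In that brightest decile the shift was 0.47 in pool A, 0.28 in pool B and 0.07 in pool C. The part of this range difference in the results on bright probes was not tested, and their values are given below with a second scaling, cyclic loess, that evens out such intensity-dependent shifts between arrays.

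**Figure D1:**
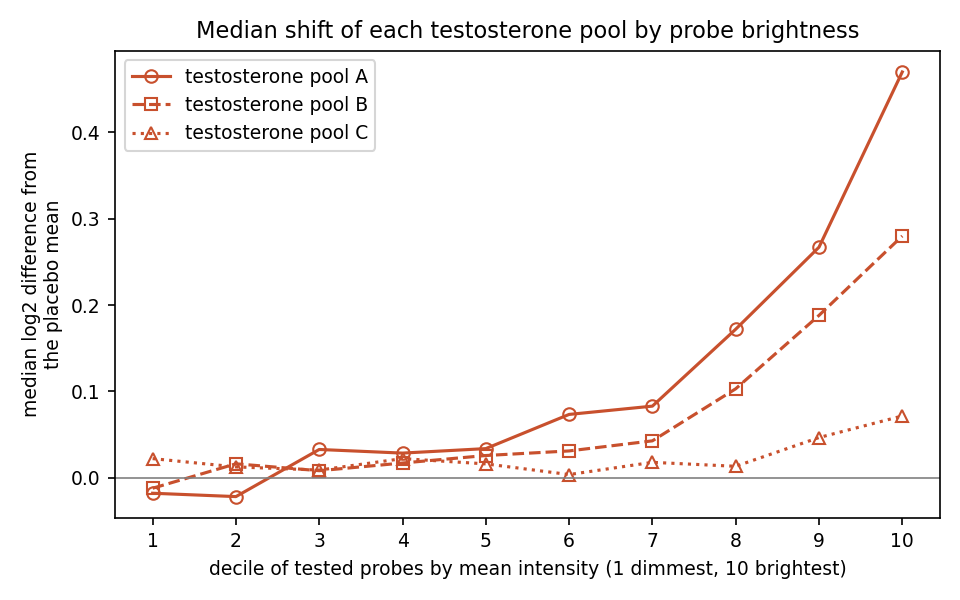
Median log2 difference of each testosterone pool (A, B, C) from the mean of the 3 placebo pools (vertical axis), in deciles of the 6334 tested probes by mean intensity (horizontal axis). The lines of pools A and B climb to 0.47 and 0.28 in the brightest decile, while pool C reaches 0.07.

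Testosterone pool C stood apart from the other testosterone pools. Over all tested probes its log2 values correlated with those of pools A and B at 0.9813 and 0.9843, no better than with the placebo pools (0.9821 to 0.9849), whereas pools A and B correlated at 0.9924 and the placebo pools among themselves at 0.9934 to 0.9946; these correlations are across probes of single arrays, which are not independent. The median SD within a group was 0.0933 on the log2 scale in placebo and 0.159 with testosterone. Results are therefore given with all pools and, where it matters, without pool C.

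Fitted within this gland over all pools, 290 of 6334 probes were called at an adjusted p of 0.05 (4.58%), 216 higher (3.41%) and 74 lower (1.17%) with testosterone. These shares are the background for the counts of calls in every gene list below. For the counts of probes above 0 the background is 3729 of the 6334 tested probes.
Changes are given as log2 differences, testosterone minus placebo, ± SE, with the adjusted p from limma. On all 290 probes the 3 testosterone pools lay on the same side of the 3 placebo pools without overlap, as they did on 37.1% of all tested probes. Most changes were moderate, with a median size of 0.57, and 21 probes reached 2-fold (13 higher, 8 lower). The count fell when any pool other than testosterone pool C was left out. It was 0 without placebo pool B (1225 at an unadjusted p under 0.05 in limma), 3 without testosterone pool B, 5 and 6 without placebo pools C and A, and 44 without testosterone pool A. Each fit with a pool left out also has fewer residual degrees of freedom. Without pool C the fit called 2109 of 6312 probes (33.4%), 1497 higher and 612 lower, and the 290 were all among them. The median change of 1490 probes called higher without pool C was 0.15 in pool C and 0.46 in pools A and B, and that of 611 called lower was -0.16 and -0.45. These probes were chosen on pools A and B and share their placebo pools with pool C, so the values are a description.

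**Figure D2:**
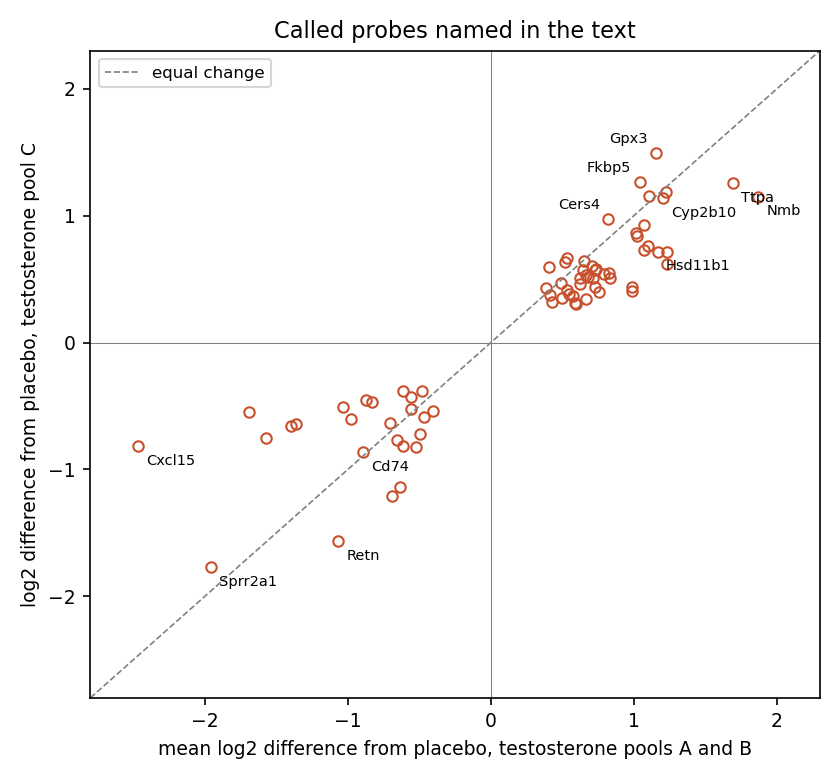
Log2 difference from the placebo mean in testosterone pool C (vertical axis) against the mean of testosterone pools A and B (horizontal axis) for the 72 called probes named here that had a value on every array. Each circle is 1 probe and the dashed line marks equal change; pool C lay nearer to placebo on 55 of the 72. The probes were chosen by calls that used all 3 pools, so none lies on opposite sides.

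The largest rise was that of Nmb, which encodes neuromedin B, a bombesin-like peptide. Listed from pool A to pool C, as are all values below, it measured 3.9998, 4.13 and 4.32 with placebo and 15.2, 15.4 and 9.28 with testosterone (1.63 ± 0.19, adjusted p = 0.0159). Pools A and B were high alike, and pool C was lower but still well above the placebo pools. Next was Ttpa, the liver transfer protein for vitamin E, at 1.55, 1.603 and 1.86 and 5.42, 5.61 and 4.07 (1.55 ± 0.14, adjusted p = 0.00563). It was followed by Gpx3, the secreted glutathione peroxidase, at 0.946, 0.876 and 1.04 and 1.99, 2.43 and 2.79 (1.27 ± 0.13, adjusted p = 0.0125). For Gpx3 pool C was the highest, not the lowest, of the testosterone pools. Other large rises included Nf2, the merlin tumour suppressor (1.21 ± 0.13, adjusted p = 0.0127), Dpf1 (1.02 ± 0.11, adjusted p = 0.0125), a subunit of neuronal chromatin remodelling complexes, Emc2 (0.97 ± 0.18, adjusted p = 0.0347), of the complex that inserts proteins into the endoplasmic reticulum membrane, and Entpd1 (0.96 ± 0.12, adjusted p = 0.0179), the surface enzyme CD39 that breaks down extracellular ATP. Nf2 and Entpd1 lay in the dimmest decile of tested probes. Nf2 measured 0.254, 0.249 and 0.308 and 0.630, 0.803 and 0.689, all below the array median. Entpd1 measured 0.452, 0.396 and 0.417 and 0.842, 0.9998 and 0.802. As the brightness filter asked for 3 arrays, Nf2 and Entpd1 could have entered the test through the testosterone pools alone.

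**Figure D3:**
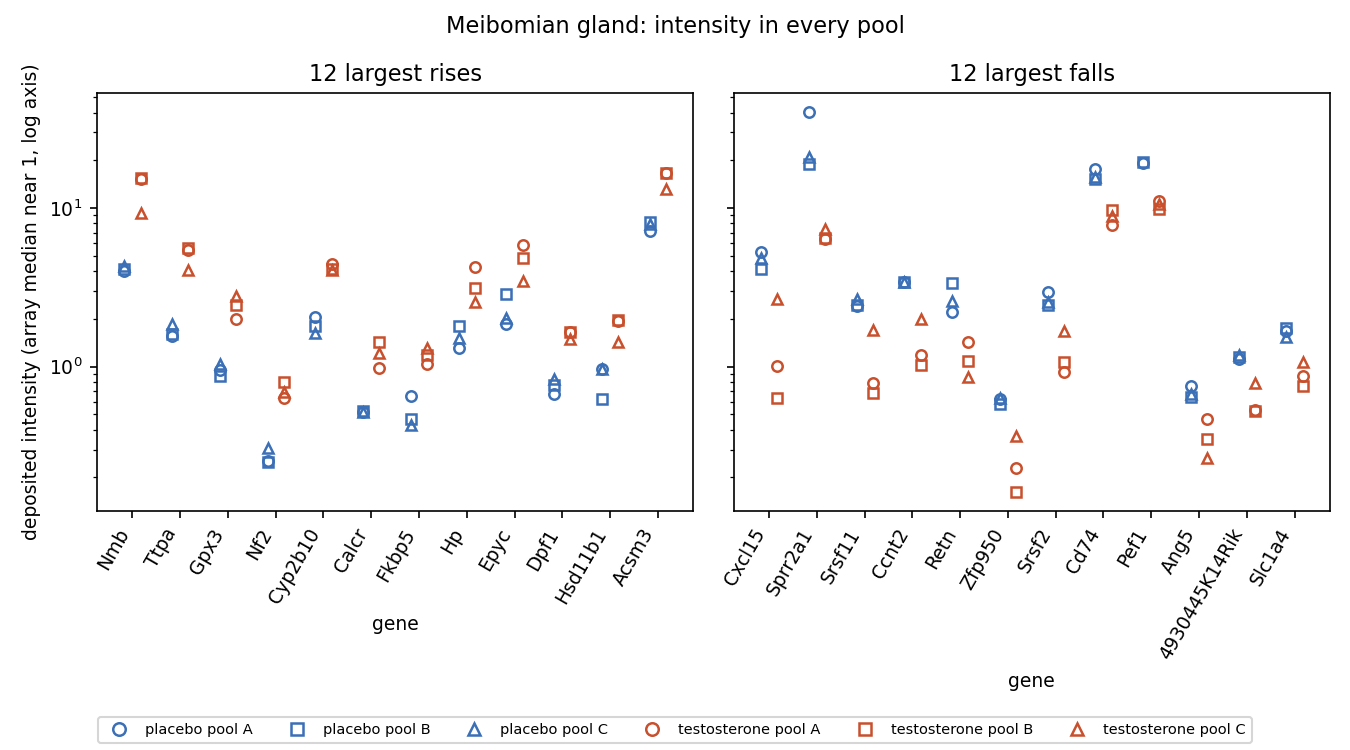
Deposited intensity (log axis) in every pool for the 12 genes with the largest rises and the 12 with the largest falls among called probes; blue marks are placebo, orange testosterone, and circle, square and triangle stand for pools A, B and C. No gene shows overlap between groups, and Pef1 has no value in placebo pool C.

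The promoters of the 15 largest rises were searched for the letters TGTTCT on both strands, a repeat unit of the elements bound by the androgen receptor and also by the glucocorticoid receptor. RefSeq gave 16 promoters for 12 of the 15 genes, each taken as the 250 bases before a start site in GRCm38.p6, and 5 of these 16 held the letters (31.2%), 2 of them being promoters of Nf2. The letters were in 16.1% of all 32851 promoters of that length, in 11.3% of 5741 promoters of genes tested in this gland, in 14.1% of 185 promoters of genes called higher and in 6.85% of 73 of genes called lower. Ttpa, Hp and Emc2 were not matched. Shown 5′ to 3′ on the gene's strand, with TGTTCT or its complement AGAACA in capitals, are 3 promoters that hold the letters and that of Fkbp5, an androgen-responsive gene that does not hold them in this window. They are Nmb (chr7:80905063-80905312, minus strand, letters from -229), Gpx3 (chr11:54902604-54902853, plus strand, letters from -133), Sult1a1 (chr7:126676419-126676668, minus strand) and Fkbp5 (chr17:28486150-28486399, minus strand). A match describes the letters and shows no binding.
Nmb: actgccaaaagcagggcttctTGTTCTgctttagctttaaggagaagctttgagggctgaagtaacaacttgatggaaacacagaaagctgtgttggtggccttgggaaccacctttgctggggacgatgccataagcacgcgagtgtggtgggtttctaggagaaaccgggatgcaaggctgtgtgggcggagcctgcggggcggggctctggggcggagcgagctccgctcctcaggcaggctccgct
Gpx3: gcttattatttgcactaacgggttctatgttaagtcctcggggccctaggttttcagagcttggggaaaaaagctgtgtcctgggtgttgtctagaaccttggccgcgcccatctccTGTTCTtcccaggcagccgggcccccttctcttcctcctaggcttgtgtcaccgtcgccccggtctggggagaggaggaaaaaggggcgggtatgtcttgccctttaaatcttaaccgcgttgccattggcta
Sult1a1: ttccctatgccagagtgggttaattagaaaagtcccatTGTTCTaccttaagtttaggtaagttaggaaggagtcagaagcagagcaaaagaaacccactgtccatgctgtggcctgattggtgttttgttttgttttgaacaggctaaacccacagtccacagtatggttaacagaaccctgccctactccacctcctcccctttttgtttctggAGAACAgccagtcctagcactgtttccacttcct
Fkbp5: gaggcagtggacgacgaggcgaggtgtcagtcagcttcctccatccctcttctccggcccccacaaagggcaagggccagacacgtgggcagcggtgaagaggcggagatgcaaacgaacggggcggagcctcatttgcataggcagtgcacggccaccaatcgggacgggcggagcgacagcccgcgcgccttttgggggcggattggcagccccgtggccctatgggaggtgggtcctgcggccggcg

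Enzymes that activate and build acyl chains were measured by 25 probes. Of these 2 were called higher and 0 lower (14 and 1 at an unadjusted p under 0.05 in limma, against 1325 and 603 of all 6334). The list's median was 0.32, against 0.07 over all tested probes, and 0.09 with cyclic loess between arrays, where the median of all probes was -0.01. Acsm3, a mitochondrial ligase that couples medium-chain acids to coenzyme A, measured 7.19, 8.11 and 7.93 in placebo and 16.7, 16.6 and 13.2 in testosterone pools (0.99 ± 0.12, adjusted p = 0.0179). Acsl4, which activates arachidonic and other polyunsaturated acids, measured 1.56, 1.58 and 1.82 and 3.39, 3.26 and 2.26 (0.80 ± 0.16, adjusted p = 0.0367), with pool C nearest to placebo.

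The elongases and desaturase of meibum were bright and did not pass the threshold. Elovl3 measured 99.01, 105 and 103 in placebo and 171, 134 and 123 in testosterone pools (0.47 ± 0.14, adjusted p = 0.0917). Elovl4, which makes the very long chains of meibum, measured 122, 125 and 128 and 204, 159 and 139 (0.40 ± 0.16, adjusted p = 0.134), and both lay without overlap. Their differences were 0.57 and 0.52 without pool C (adjusted p = 0.012 and 0.0158), but as low as 0.15 and 0.06 across the alternatives, and both probes lie in the brightest decile. Scd1, the desaturase that makes oleic acid, was at 27.4, 28.5 and 27.2 and 32.95, 33.4 and 34.9 (0.28 ± 0.09, adjusted p = 0.0984). Fasn, the synthase that makes palmitate, had 2 probes, of which the brighter measured 18.9, 21.7 and 22.3 and 17.6, 23.3 and 25.1 with overlapping pools (0.06 ± 0.15, adjusted p = 0.806). Plin2, which coats lipid droplets, measured 92.9, 96.8 and 97.6 and 153, 132 and 110.01 (0.45 ± 0.14, adjusted p = 0.0951).

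Droplet and lipid-storage genes had 1 call. Mgll, the lipase that frees the last acyl chain from glycerol, measured 8.57, 8.98 and 10.01 and 11.6, 12.7 and 13.9 (0.47 ± 0.11, adjusted p = 0.0482), and it was the 1 probe called among 19 of the lipid droplet and sebocyte list. Of 15 glycerolipid and wax ester probes 0 were called (4 higher and 0 lower at an unadjusted p under 0.05), and the acyltransferases Agpat1 and Gpat4 of the start of that pathway had the smallest p (0.37 ± 0.10, adjusted p = 0.0706 and 0.29 ± 0.10, adjusted p = 0.116). The 15 tested probes were of glycerolipid genes. Awat2, of wax ester synthesis, and Soat1, of cholesteryl ester synthesis, had no probe, so their response to testosterone was not measured. Dgat2, which adds the final acyl chain to triglyceride, overlapped between groups at 16.97, 21.2 and 20.5 and 14.5, 17.7 and 21.6 (-0.14 ± 0.16, adjusted p = 0.573). Pparg, the nuclear receptor that drives fat and sebocyte differentiation, also overlapped, at 11.5, 8.52 and 11.1 and 14.1, 12.4 and 10.3 (0.24 ± 0.15, adjusted p = 0.299). The summed intensity of 6 sebocyte markers was 326.5 to 332.1 in placebo and 375.1 to 503.6 in testosterone pools, highest in A and lowest in C, the order of the array maxima. In these bulk samples more cells of a type and more RNA per cell cannot be told apart.

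Several ceramide enzymes rose. Of 18 probes of sphingolipid metabolism 4 were called higher (22.2%, against 4.58% of all probes in either direction) and 0 lower (10 and 3 unadjusted), with a median of 0.27, and of 0.18 with cyclic loess. Cers4, a ceramide synthase that uses long saturated acyl chains, measured 11.9, 13.4 and 13.2 in placebo and 18.6, 27.6 and 25.2 in testosterone pools (0.87 ± 0.15, adjusted p = 0.0331). Here pools B and C were high and pool A was the nearest to placebo. Kdsr, which makes dihydrosphingosine at the start of the pathway, measured 11.1, 11.2 and 11.3 and 19.8, 17.4 and 16.7 (0.68 ± 0.10, adjusted p = 0.0226). The placebo pools of Kdsr were nearly equal. The lysosomal enzymes Asah1, acid ceramidase, and Gla, alpha-galactosidase, both break sphingolipids down and also rose, to 8.53, 8.09 and 7.21 from 5.62, 5.53 and 5.57 and to 2.97, 2.78 and 2.36 from 1.99, 1.84 and 1.84 (0.50 ± 0.09, adjusted p = 0.0351; 0.50 ± 0.11, adjusted p = 0.0438). Another member, Sptssa, a small subunit of the enzyme that starts sphingolipid synthesis, was picked after its values were seen and was just outside the threshold, at a mean of 21.1 and 35.2 (0.72 ± 0.18, adjusted p = 0.0569). Chosen in the same way, the desaturase Degs1, the sphingomyelin synthase Sgms2 and the lyase Sgpl1 had lower values with testosterone without overlap and without passing (-0.36, -0.34 and -0.28; adjusted p = 0.071, 0.064 and 0.074), and all 3 were called lower without pool C.

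Cholesterol synthesis was represented by 14 probes, of which 2 were called higher and 0 lower (6 and 0 unadjusted), with a median of 0.23 that became 0.08 with cyclic loess. Cyp51, which demethylates lanosterol, measured 50.1, 47.98 and 54.4 and 89.6, 86.4 and 73.7 (0.71 ± 0.12, adjusted p = 0.0327). Hsd17b7, a ketoreductase of the sterol pathway that can also reduce estrone, measured 3.15, 2.69 and 3.52 and 6.01, 6.43 and 4.14 (0.80 ± 0.17, adjusted p = 0.0458), with pool C close to the highest placebo pool. Neighbouring enzymes chosen after their values were seen, Msmo1 and Tm7sf2, differed by 0.41 ± 0.14 and 0.49 ± 0.15 without passing (adjusted p = 0.103 and 0.0818).

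Steroid and retinoid enzymes gave the highest share of calls of any list with more than 10 tested probes: 5 of 18 (27.8%) were called higher and 0 lower (9 and 0 unadjusted), and their median of 0.32 was 0.20 with cyclic loess. Hsd11b1, which regenerates active glucocorticoid from its inert keto form, measured 0.973, 0.626 and 0.966 in placebo and 1.95, 1.97 and 1.42 in testosterone pools (1.02 ± 0.19, adjusted p = 0.0359). Rdh11, a retinal reductase of the endoplasmic reticulum, measured 7.64, 7.76 and 7.55 and 15.2, 12.3 and 10.9 (0.73 ± 0.13, adjusted p = 0.0331). Its placebo values were tight and the testosterone pools fell in the order of the array maxima. Akr1c13 and Akr1c18 belong to the aldo-keto reductases that act on hydroxysteroids, and Akr1c18 inactivates progesterone. They measured 1.36, 1.49 and 1.16 and 7.72, 7.28 and 7.61 in placebo and 2.402, 2.39 and 1.97 and 11.1, 12.2 and 10.8 in testosterone pools (0.73 ± 0.12, adjusted p = 0.0326; 0.59 ± 0.09, adjusted p = 0.027). The other call was Hsd17b7, which is counted in the cholesterol list too. Members of these reductase families are alike in sequence, and whether the probes tell them apart was not tested.

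Genes that androgens induce in other organs went both ways, with 3 of 25 probes called higher and 1 lower and a median of -0.05, which became 0.03 when testosterone pool B was left out. Fkbp5, a cochaperone of steroid receptors and a common readout of androgen and glucocorticoid action, measured 0.651, 0.465 and 0.426 in placebo and 1.03, 1.18 and 1.302 in testosterone pools (1.12 ± 0.16, adjusted p = 0.0226). Its placebo values lay below the array medians and its testosterone values above them, so the testosterone pools alone met the brightness filter. Pool C was the highest. Fkbp4, a related cochaperone that the androgen receptor needs in reproductive tissue, measured 21.5, 22.7 and 21.02 and 32.5, 29.1 and 27.7 (0.45 ± 0.10, adjusted p = 0.0479). Cyp2b10, a cytochrome P450 of drug and steroid hydroxylation, measured 2.04, 1.81 and 1.64 and 4.42, 4.13 and 4.09 (1.18 ± 0.10, adjusted p = 0.00563), and its 3 testosterone pools were close to each other. Homer2, a scaffold protein of receptor signalling, was the member that fell, from 2.56, 2.81 and 2.45 to 1.57, 1.803 and 1.98 (-0.53 ± 0.11, adjusted p = 0.0411).

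Detoxification enzymes had 4 of 45 probes called higher (8.89%) and 0 lower (15 and 3 unadjusted). Beside Cyp2b10 they were Sult1a1, which sulfates phenols, at 3.82, 4.099 and 3.896 and 9.07, 7.66 and 6.56 (0.96 ± 0.12, adjusted p = 0.0179), Gstz1, of tyrosine breakdown (0.56 ± 0.12, adjusted p = 0.0437), and Cyp4f16, of the fatty acid hydroxylases (0.57 ± 0.12, adjusted p = 0.0408). The list's median was 0.20, and 0.11 with cyclic loess. Carriers of lipids and fat-soluble vitamins were called higher on 2 of 26 probes, Ttpa and Fabp3, a fatty acid binding protein of muscle (2.62, 1.88 and 2.26 and 3.34, 3.71 and 3.34; 0.62 ± 0.13, adjusted p = 0.0408), and lower on 0 (6 and 3 unadjusted). Fatty acid oxidation and peroxisome genes had 1 of 39 probes called, Decr2, a peroxisomal reductase of unsaturated acids (0.49 ± 0.10, adjusted p = 0.0408). That list was above 0 on 36 of its 39 probes, with a median of 0.23 and of 0.07 with cyclic loess.

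Peptides and their receptors gave 3 rises in 23 tested probes and 0 falls (10 and 1 unadjusted), and this list's median was 0.24 with the deposited scaling and with cyclic loess and 0.20 with quantile normalization over 18 arrays. Besides Nmb they were Calcr, the calcitonin receptor, and Cck, the peptide cholecystokinin. Calcr measured 0.514, 0.522 and 0.514 in placebo, 3 nearly equal values, and 0.977, 1.44 and 1.22 in testosterone pools (1.12 ± 0.14, adjusted p = 0.0179). Its placebo values lay below the array medians and its testosterone values above them. The testosterone pools alone thus met the brightness filter for Calcr. Cck measured 5.25, 5.75 and 6.199 and 9.296, 9.82 and 8.57 (0.68 ± 0.10, adjusted p = 0.0246). Grpr, a bombesin peptide receptor chosen after its values were seen because it is related to the receptor of Nmb, was close to the threshold, with means of 1.997 and 2.75 (0.45 ± 0.11, adjusted p = 0.0549). The array held 70 probes of this list, so the 23 tested are its brighter members.

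**Figure D4:**
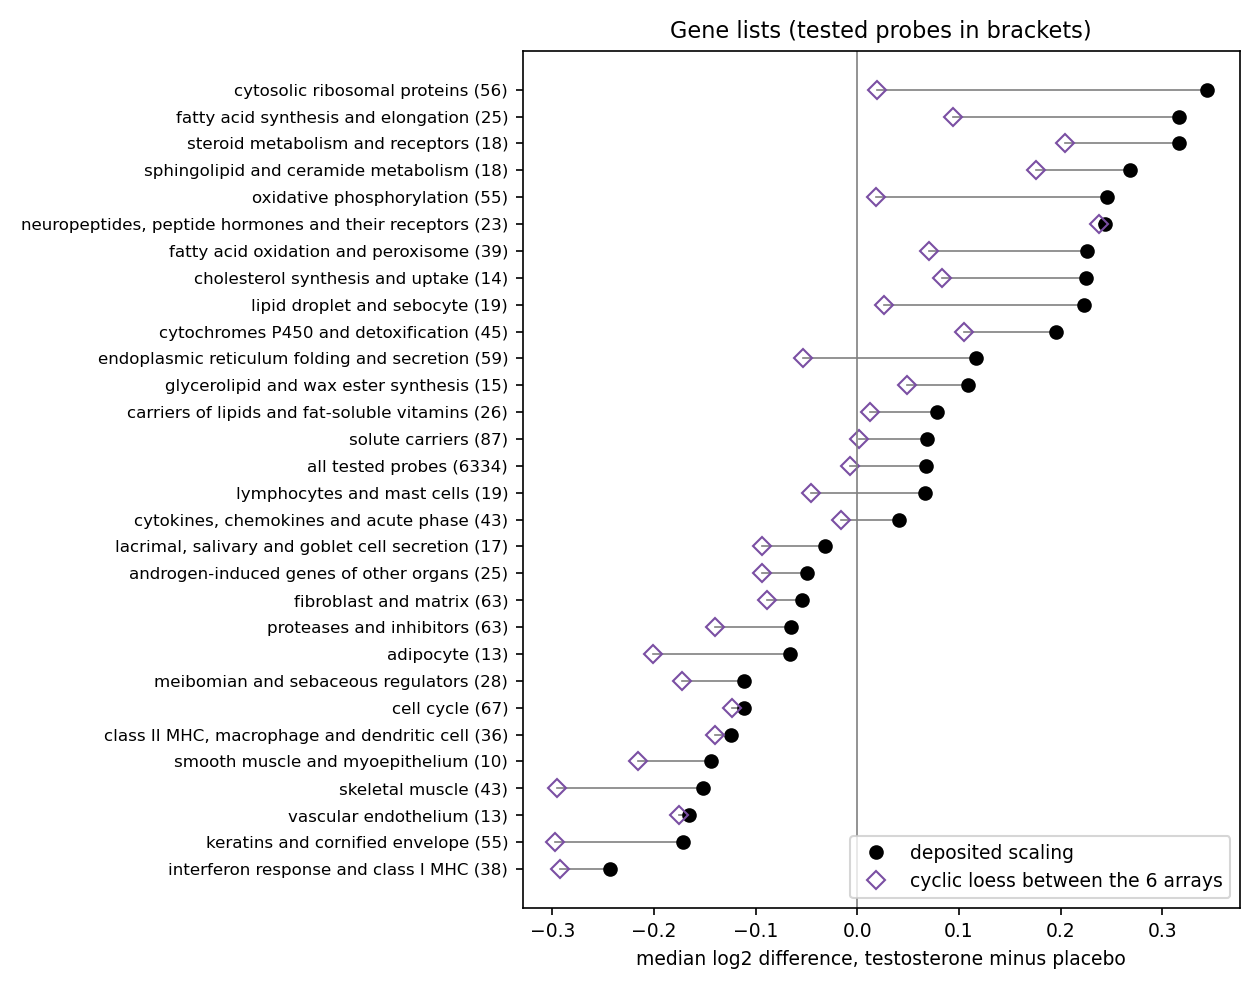
Median log2 difference, testosterone minus placebo, of each gene list with at least 10 tested probes, with the deposited scaling (black circles) and after cyclic loess between the 6 arrays (open diamonds); the number of tested probes is in brackets. Lists of bright genes, such as ribosomal proteins (0.34 and 0.02), move most between the scalings, and peptides and receptors stay at 0.24.

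Among the genes that fell, Cxcl15, the chemokine lungkine of mucosal epithelia, measured 5.27, 4.12 and 4.87 in placebo and 1.01, 0.638 and 2.66 in testosterone pools (-1.92 ± 0.42, adjusted p = 0.0452). Pools A and B were far down and pool C lay between them and placebo. Sprr2a1, a small proline-rich protein of the cornified envelope, measured 40.04, 18.9 and 21.01 and 6.34, 6.51 and 7.33 (-1.89 ± 0.25, adjusted p = 0.0185). Placebo pool A was well above pools B and C, and the testosterone pools were close to each other. Sprr2f, a paralog on the same envelope, rose instead, from 13.7, 13.7 and 14.7 to 25.5, 22.1 and 18.5 (0.64 ± 0.13, adjusted p = 0.0387). Genes of this family resemble each other, and whether probes cross-react was not tested.

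Keratins and cornified envelope genes otherwise lay low: of 55 probes 13 were above 0, and the median was -0.17, or -0.30 with cyclic loess, although only those 2 Sprr2 probes were called (3 higher and 19 lower unadjusted). Without pool C 4 were called higher and 18 lower, against 23.7% and 9.7% of all probes. Chosen after their values were seen, Krt13 and Krt19, keratins of mucosal and simple epithelium, had means of 29.6 and 35.7 in placebo and 17.1 and 21.7 with testosterone (-0.84 ± 0.24 and -0.77 ± 0.23; adjusted p = 0.0713 and 0.082). Sprr3 and Krt6a differed by -1.21 ± 0.29 and -1.28 ± 0.40 (adjusted p = 0.0544 and 0.0945). Not all members followed: Sprr1a, the brightest of the markers of the duct, measured 108.5 to 116.7 in placebo and 132.3 to 156.3 with testosterone, and the epidermal keratin Krt1 overlapped, at 24.5 to 49.7 and 21.7 to 48.6. The sum of 4 keratinised duct and epidermis markers was 186 to 226.5 in placebo and 204.1 to 236.7 in testosterone pools.

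The list of class II MHC, macrophage and dendritic cell genes had 4 of 36 probes called lower (11.1%, against 1.17% of all probes) and 0 higher (8 and 0 unadjusted), of which Cd74 and H2-DMa serve antigen presentation and the others are general leukocyte genes. The list as a whole did not shift steadily: its median was -0.12, but -0.0085 without testosterone pool C, and lay between -0.24 and 0.05 over the alternatives. Its array medians overlapped between groups, at 0.08, -0.16 and 0.07 with placebo and -0.17, 0.11 and -0.33 with testosterone. Cd74, the invariant chain that escorts MHC class II molecules, measured 17.7, 15.2 and 15.7 and 7.82, 9.66 and 8.896 (-0.88 ± 0.11, adjusted p = 0.0179). H2-DMa, which loads peptide onto class II, measured 1.83, 1.37 and 1.77 and 0.851, 1.13 and 1.04 (-0.68 ± 0.14, adjusted p = 0.0432). Coro1a, an actin regulator of leukocytes, and Itgb2, the shared chain of leukocyte integrins, fell from 1.06, 0.952 and 0.903 to 0.6102, 0.577 and 0.544 and from 0.63001, 0.556 and 0.658 to 0.434, 0.402 and 0.349 (-0.69 ± 0.11, adjusted p = 0.027; -0.57 ± 0.12, adjusted p = 0.0432). The macrophage markers Lyz2 and C1qb overlapped, at 17.6 to 21.5 and 14.2 to 25.0 for Lyz2, and 5.65 to 7.03 and 5.71 to 8.03 for C1qb. The summed marker level of 3 macrophage and dendritic cell genes was 38.5 to 45.0 in placebo and 28.8 to 42.7 with testosterone. The class II chain H2-Aa, chosen after its values were seen, measured 23.7 to 32.9 and 11.5 to 20.8 without passing (-0.67 ± 0.24, adjusted p = 0.114).

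Interferon response and class I MHC genes had no call. Of 38 probes 6 were above 0, the median was -0.24 (-0.29 with cyclic loess), and 0 were called in limma (1 higher and 9 lower unadjusted). Tap1, the peptide transporter for class I, measured 0.882, 0.635 and 0.638 and 0.439, 0.452 and 0.474 (-0.58 ± 0.14, adjusted p = 0.0534), and Samhd1, which depletes nucleotides, 5.79, 4.93 and 4.81 and 2.99, 2.83 and 4.25 (-0.63 ± 0.16, adjusted p = 0.0578). The list's array medians overlapped between groups, at 0.17, -0.02 and -0.17 with placebo and -0.16, -0.37 and -0.25 with testosterone. Placebo pool A was raised for some members, such as the interferon-induced GTPase Tgtp1, at 12.2 against 1.504 and 1.62 in pools B and C, chosen after its values were seen. Among cytokines and acute phase genes 1 of 43 probes rose and 2 fell: Hp, haptoglobin, measured 1.31, 1.798 and 1.51 and 4.28, 3.15 and 2.55 (1.06 ± 0.19, adjusted p = 0.0332), and Il1r1, the receptor of interleukin 1, measured 1.84, 1.51 and 1.47 and 1.12, 1.01 and 1.09 (-0.55 ± 0.11, adjusted p = 0.0408), beside Cxcl15. Of 19 lymphocyte and mast cell probes 1 was called, Cd247, the zeta chain of the T cell receptor, at 1.66, 1.56 and 1.75 and 2.28, 2.21 and 2.08 (0.39 ± 0.09, adjusted p = 0.0487), while Cd3e of the same receptor was near 0.

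Connective tissue genes changed in both directions. The fibroblast and matrix list, with 63 probes, held 3 rises and 2 falls (7 and 9 unadjusted), and the median was -0.05, which became 0.02 without testosterone pool C and 0.0057 without placebo pool C, and lay between -0.17 and 0.11 over the alternatives. Epyc, the proteoglycan epiphycan, measured 1.86, 2.87 and 2.04 and 5.83, 4.81 and 3.44 (1.03 ± 0.21, adjusted p = 0.0419), and Igfbp6, which binds insulin-like growth factor II, 1.61, 1.85 and 1.499 and 2.65, 2.697 and 2.39 (0.63 ± 0.11, adjusted p = 0.0326). The remaining rise was Sparc, a collagen-binding matrix protein outside the rule for naming, with means of 32.2 and 45.6 (0.50 ± 0.11, adjusted p = 0.0472). Falling were Ccn2, connective tissue growth factor, from 6.495, 6.39 and 6.28 to 3.75, 4.59 and 3.59 (-0.68 ± 0.11, adjusted p = 0.029), and Timp3, a matrix-bound inhibitor of metalloproteases, from 5.26, 4.62 and 4.84 to 3.49, 3.56 and 3.25 (-0.51 ± 0.09, adjusted p = 0.0332). The matrix genes that mark fibroblasts did not pass, and Dcn ranged from 48.5 to 100 with testosterone around placebo values of 55.5 to 58.0, with pool B highest and pool C lowest.

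Muscle and fat lists had few calls. The skeletal muscle list had 2 of 43 probes called (4.65%, against 4.58% of all probes): 1 higher, Tnni1, slow troponin I (0.40 ± 0.09, adjusted p = 0.0438), and 1 lower, Car3, a carbonic anhydrase of slow muscle and fat, at 1.89, 2.42 and 2.199 and 1.57, 1.19 and 0.9499 (-0.80 ± 0.18, adjusted p = 0.0458). The muscle list's array medians, relative to the placebo mean, were 0.10, -0.14 and 0.04 with placebo and -0.19, -0.23 and 0.09 with testosterone, from pool A to C, so the groups overlapped. Without pool C 16 of these 43 probes were called lower and 4 higher, where 9.7% of all probes were called lower and 23.7% higher. The muscle marker Acta1 measured 22.7 to 25.8 in placebo, 14.0 and 16.8 in testosterone pools A and B, and 23.3 in pool C. The fat cell list had 0 of 13 probes called higher and 2 lower, Car3 again and Retn (1 and 3 unadjusted), with 6 of 13 above 0 and a median of -0.07 that was 0.03 without testosterone pool C. Retn, the fat cell hormone resistin, measured 2.195, 3.35 and 2.58 and 1.42, 1.08 and 0.8599 (-1.23 ± 0.20, adjusted p = 0.0294). Adipoq, adiponectin, also of fat cells, measured 2.52, 4.02 and 3.05 and 3.04, 1.93 and 1.11, with overlap, and the 2 fat markers together were 4.72 to 7.38 in placebo and 1.98 to 4.46 with testosterone. The part of eyelid fat and muscle in these changes was not tested. Acta2, smooth muscle actin, fell from 13.4, 12.7 and 14.3 to 10.4, 9.94 and 9.24 (-0.45 ± 0.09, adjusted p = 0.0432), the 1 call among 10 smooth muscle and myoepithelium probes. Melanocyte and endothelial lists had 0 calls in 4 and 13 probes (0 and 1 higher, 1 and 1 lower unadjusted), with Kit (-0.73 ± 0.18, adjusted p = 0.0534), Pmel (-0.29 ± 0.17, adjusted p = 0.268), Erg (0.52 ± 0.15, adjusted p = 0.0737) and Aqp1 (-0.43 ± 0.19, adjusted p = 0.158) the nearest.

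Regulators of sebaceous cells and of growth had 3 calls in 28 probes. Lgr5, a Wnt receptor partner on epithelial stem cells, measured 1.49, 1.45 and 1.68 and 2.58, 2.596 and 2.11 (0.64 ± 0.11, adjusted p = 0.0332). Ereg, the EGF family ligand epiregulin, fell from 5.502, 5.55 and 5.65 to 4.29, 3.47 and 3.12 (-0.62 ± 0.12, adjusted p = 0.0367), and Foxo1, a transcription factor restrained by insulin, from 1.102, 1.08 and 1.0004 to 0.632, 0.778 and 0.7699 (-0.52 ± 0.11, adjusted p = 0.0442). Of 67 cell cycle probes 0 rose and 1 fell (4 and 12 unadjusted), Pold1, the catalytic subunit of DNA polymerase delta (-0.45 ± 0.09, adjusted p = 0.0408), and the list's median was -0.11.

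Further large falls were in genes of other kinds. Srsf11 and Srsf2, splicing factors, fell from 2.41, 2.45 and 2.67 to 0.793, 0.677 and 1.699 (-1.31 ± 0.28, adjusted p = 0.0442) and from 2.97, 2.46 and 2.55 to 0.924, 1.06 and 1.67 (-1.13 ± 0.20, adjusted p = 0.0331). Ccnt2, a cyclin of the elongation kinase P-TEFb, fell from 3.42, 3.41 and 3.42 to 1.19, 1.03 and 2.01 (-1.30 ± 0.21, adjusted p = 0.0294), and its 3 placebo pools were nearly equal. For these 3 genes pool C lay between the other testosterone pools and placebo, and the differences without it were -1.69, -1.37 and -1.57. Pef1, a calcium-binding protein, measured 19.3 and 19.5 in placebo pools A and B, with no value in pool C, and 11.1, 9.88 and 10.6 with testosterone (-0.88 ± 0.11, adjusted p = 0.0185). Zfp950 (-1.15 ± 0.21, adjusted p = 0.0359), Ang5 (-0.87 ± 0.18, adjusted p = 0.0408), the neutral amino acid carrier Slc1a4 (-0.85 ± 0.13, adjusted p = 0.0277), the mitochondrial enzyme Gpd2 (-0.73 ± 0.14, adjusted p = 0.0367), the sorting receptor Sorl1 (-0.71 ± 0.13, adjusted p = 0.0345) and 4930445K14Rik (-0.86 ± 0.15, adjusted p = 0.0332) completed the 15 largest falls. Zfp950 and Ang5 lay in the dimmest decile. Zfp950 fell from 0.622, 0.582 and 0.633 to 0.231, 0.163 and 0.365, and Ang5 from 0.758, 0.647 and 0.675 to 0.468, 0.348 and 0.264. Both could have passed the brightness filter through the placebo pools alone.

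Transport and protease genes had few calls. Of 87 solute carrier probes 3 rose and 1 fell (4.6%, the same share as the 4.58% of all probes). The rises were Slc7a11, the cystine carrier (0.67 ± 0.13, adjusted p = 0.0359), Slc19a1, the folate carrier (0.58 ± 0.10, adjusted p = 0.0343), and Slc10a1, a bile acid carrier (0.40 ± 0.09, adjusted p = 0.0469), and the fall was Slc1a4. Of 63 protease and inhibitor probes Ctsb, cathepsin B of lysosomes, and Serpinb6a, a serine protease inhibitor inside cells, rose (0.50 ± 0.11, adjusted p = 0.0442; 0.62 ± 0.11, adjusted p = 0.0345), and Timp3 fell. Secretory and nerve lists gave Kcnn4, a calcium-gated potassium channel of secreting cells (0.56 ± 0.10, adjusted p = 0.0365), Lcn3, a lipocalin (0.65 ± 0.11, adjusted p = 0.0326), and Snap25, a vesicle fusion protein of nerve (0.48 ± 0.10, adjusted p = 0.0411), all higher. They were 2 of 17 secretory probes and 1 of 9 nerve probes, with 0 called lower. As wholes these lists did not rise: 7 of the 17 and 4 of the 9 were above 0, and the medians were -0.03 and -0.01.

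For the brightest gene families the size of the shift rests on the scaling. Cytosolic ribosomal protein genes were above 0 on 52 of 56 probes with a median of 0.34, yet 1 was called, Rplp1 (0.65 ± 0.11, adjusted p = 0.0326), and the median was 0.02 with cyclic loess and 0.000982 with quantile normalization. Array medians of this list were 0.60, 0.34 and 0.06 in testosterone pools A, B and C. Oxidative phosphorylation genes behaved alike, with 51 of 55 probes above 0, a median of 0.25 that became 0.02 with cyclic loess, and 1 call, Atp5k, a subunit of ATP synthase (0.50 ± 0.11, adjusted p = 0.0472). Protein folding genes of the endoplasmic reticulum had 0 calls in 59 probes (12 higher and 1 lower unadjusted) and a median of 0.12 that turned to -0.05 with cyclic loess. Ero1a, an oxidase that makes disulfide bonds, and Sdf2l1, a chaperone subunit, were closest to the threshold in opposite directions (0.42 ± 0.10, adjusted p = 0.0547 and -0.34 ± 0.08, adjusted p = 0.0578). Over all probes the calls split 216 higher to 74 lower (74.5% higher) with the deposited scaling, 205 to 107 (65.7%) with quantile normalization and 178 to 120 (59.7%) with cyclic loess.

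The same genes were then compared with the lacrimal gland and the submandibular salivary gland, each with its own placebo pools, in a joint fit of all 18 arrays. Its spread is shared with the more variable other glands, and it called 56 of 6300 meibomian probes (0.889%). Differences between the glands' changes were called on 1108 of 6300 probes against the lacrimal gland (17.6%) and on 445 against the submandibular gland (7.06%). Of 288 probes called in the meibomian gland alone, the difference was called on 102 against the lacrimal gland (35.4%) and on 70 against the submandibular gland (24.3%). Of the same 288, 63 were called the same way and 36 the opposite way in the lacrimal gland, and 30 and 26 in the submandibular gland. Of all tested probes, in either direction, the lacrimal gland called 27.8% and the submandibular gland 13.5%.

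Single genes differed in their pattern over the glands. Ttpa rose in the meibomian gland, measured 0.330 and 0.348 in the lacrimal gland, and fell from a mean of 5.57 to 2.23 in the submandibular gland, so the changes differed by 1.49 ± 0.41 and 2.82 ± 0.41 (adjusted p = 0.0204 and 0.000575). Cers4, at means near 1 in both other glands, changed there by -0.09 (lacrimal) and 0.04 (submandibular), and the meibomian change was larger by 0.96 ± 0.24 and 0.83 ± 0.24 (adjusted p = 0.0113 and 0.0492). Nmb changed by -0.04 in the lacrimal gland but by 1.39 in the submandibular gland, so the meibomian change exceeded the lacrimal one by 1.67 ± 0.33 (adjusted p = 0.00193) and was not called different from the submandibular one (0.24 ± 0.33, adjusted p = 0.718). Hp fell from a mean of 339 to 109 in the lacrimal gland and rose in the meibomian gland (difference 2.70 ± 0.28, adjusted p = 3.63e-06). Fkbp5 and Cyp2b10 rose in all 3 glands: Fkbp5 rose less here than in the lacrimal gland (-2.69 ± 0.50, adjusted p = 0.00133), and Cyp2b10 less than in the submandibular gland (-3.01 ± 0.31, adjusted p = 1.9e-05). Sprr2a1 was below 0.5 in the other glands, where it changed by -0.24 and 0.44. Retn fell in the lacrimal (-0.83) and submandibular glands (-0.89) too, and neither difference from the meibomian change was called (adjusted p = 0.46 and 0.576).

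**Figure D5:**
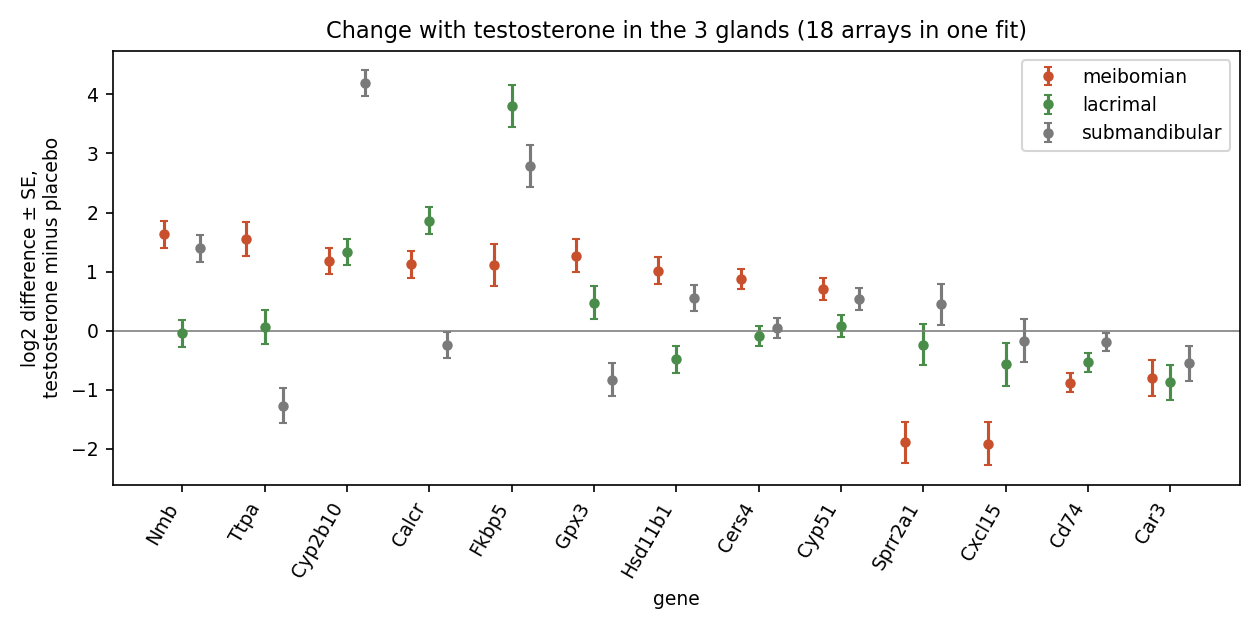
Log2 difference, testosterone minus placebo, with its SE (bars) for 13 genes in the meibomian (orange), lacrimal (green) and submandibular gland (grey), from the joint fit of 18 arrays. Cers4 stands above 0 in the meibomian gland and near 0 in the others, while Fkbp5 and Cyp2b10 stand above 0 in all 3 glands.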

How the data were processed

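Testosterone and placebo groups, 3 pools each, were taken from the sample titles. The series matrix holds the authors' deposited intensity values, 1 per probe and array. Their background correction and scaling are not given in the sources used here, and the scaling was kept. The value -1 (79 to 118 probes an array) was read as missing, because the lowest other value was -0.0532, and other negative values were set to 0. Gene symbols came from the platform annotation: 8983 probes had 1 symbol, 1 had several and 1516 had none, and 8975 matched RefSeq. Probes of 1 gene were tested separately.

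Values became log2(value + 0.0609), the offset being the 10th percentile of positive values, so changes of dim probes are understated. A probe was tested with at least 2 values in each group and a value above its array's 40th percentile on at least 3 arrays, which excluded 99 probes with missing values and 4067 dim ones. As each group has 3 arrays, a dim probe could pass through the group where it is higher alone. The meibomian arrays alone (6) entered a limma fit (version 3.58.1, R 4.3.3) with eBayes and an intensity trend (4 residual degrees of freedom), and p-values were adjusted by Benjamini-Hochberg over all tested probes at 0.05. Differences between glands came from a joint fit of 18 arrays (12 residual degrees of freedom). The fit was also run on simulated data, with independent errors of equal spread on all arrays. That simulation held no deviating pool and no shift with brightness, so it does not cover these features of the arrays. Depth has no meaning for arrays, and their number limits the precision. No letter block was used in the fit. Deviations of same-letter pools correlated at -0.128, -0.0194 and 0.0627, and those of different-letter pools at -0.112 to 0.169. With 3 pools in each group these correlations cannot decide whether the letters pair the arrays.

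Genes named are the 15 largest rises and falls among called probes with 1 symbol whose groups did not overlap, at most 4 called members from every one of 31 gene lists (up to 2 where none was called) and some always reported where measured. The question, the lists and this rule were chosen with earlier results of these data known. Alternatives were other offsets, filters, scalings, variance models and thresholds, a letter block, 1 probe per gene, the brightest probes left out, -1 as 0, and each pool left out. Added after seeing the data were both rescalings without testosterone pool C.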

Additional observations from a re-analysis of the deposited data

Results flagged for a closer look

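Each result here is a called meibomian change of a named gene that differed from the change of the same gene in another gland, by a contrast in limma over 18 arrays with an adjusted p under 0.05 over 6300 probes. Values are the meibomian change minus the other gland's change on the log2 scale. The joint fit shares its spread over glands whose own spreads differ, and the arrays of this gland have a narrower range. Brightness was filtered on the meibomian arrays only, so a probe can be dim in the other glands.

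Several of the lipid and steroid enzymes named here differed from the lacrimal gland. Their changes there were below 0, and the differences were 1.78 for Acsl4, 1.21 for Acsm3, 0.972 for Mgll, 1.92 for Hsd17b7, 1.5 for Hsd11b1, 1.39 for Akr1c18 and 0.791 for Rdh11. Acsl4 and Hsd17b7 were below the array median in the lacrimal gland, with means falling from 0.606 to 0.292 and from 0.453 to 0.171. These falls of dim probes (-0.97 and -1.12) are part of their differences. Acsm3 was below the lacrimal medians too, at means of 0.660 and 0.563, as were Mgll and Hsd11b1 with testosterone (0.687 and 0.740). The lacrimal changes of Acsm3, Mgll, Hsd11b1 and Rdh11 were not themselves called in limma. They were -0.22, -0.51, -0.48 and -0.06 (adjusted p = 0.342, 0.0672, 0.128 and 0.785). Ceramide enzymes did likewise, with 1.09 for Kdsr, 0.962 for Cers4, 0.983 for Asah1 and 0.949 for Gla. Cers4 was dim in the lacrimal gland, at means of 0.777 and 0.727, and its change there was not called (-0.09, adjusted p = 0.747 in limma). Against the submandibular gland the difference was 0.828 for Cers4 and 0.71 for Rdh11, whereas Mgll rose more there (-1.2).

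Among peptides, receptors and carriers, the lacrimal differences were 1.67 for Nmb, 1.76 for Cck, 1.47 for Lgr5, 1.49 for Ttpa and 1.21 for Lcn3. Ttpa and Lcn3 also exceeded the submandibular change, by 2.82 and 0.877, as did Calcr (1.37), Kcnn4 (0.949), Slc19a1 (0.867), Slc7a11 (0.816) and Snap25 (0.76). Gpx3 differed from the submandibular gland by 2.1, and Entpd1 from the lacrimal and submandibular glands by 1.23 and 1.15.

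Of the genes named here Hp gave the largest positive lacrimal difference (2.7), and Epyc (1.69), Rplp1 (1.45), Ctsb (1.28) and Sprr2f (1.2) also rose here while their lacrimal changes were below 0. Sprr2f was dim in the lacrimal gland, at means of 0.513 with placebo and 0.326 with testosterone, and its change there was not called (-0.56, adjusted p = 0.0693 in limma). Fkbp5 rose less than in the lacrimal gland (-2.69), and Cyp2b10 and Serpinb6a less than in the submandibular gland (-3.01 and -1.97). Tnni1 differed from the submandibular gland by 0.764.

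Of the genes that fell here, Ereg differed from the lacrimal gland by -1.8, Zfp950 by -1.6, Sprr2a1 by -1.66 and Pef1 by -1.17. Homer2 and Sorl1 fell more in the lacrimal gland than here (1.15 and 0.898). Acta2, Ccn2 and Timp3 rose in the submandibular gland and fell here, with differences of -1.44 for Acta2, -1.41 for Ccn2 and -2.03 for Timp3. Sprr2a1 (-2.34), Srsf11 (-1.39), Gpd2 (-1.31) and Zfp950 (-1.29) also differed from the submandibular gland.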

How the results depend on the processing

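Leaving out 1 pool gave 0 to 2109 calls (0 to 1497 higher, 0 to 612 lower): 0 without placebo pool B (1225 at an unadjusted p under 0.05 in limma), 3 without testosterone pool B, 5 and 6 without placebo pools C and A, 44 without testosterone pool A and 2109 without testosterone pool C, against 290 with all. With testosterone pool C left out, quantile normalization gave 1427 calls (707 higher, 720 lower) and cyclic loess 1511 (746 and 765); these were chosen after seeing the data and hold 279 and 280 of the 290. Array weights gave 3043 (1989 and 1054), and the joint fit of all 18 arrays 56 (47 and 9). A threshold of 0.01 left 3 (3 and 0) and of 0.10 gave 931 (645 and 286). Counting -1 as 0 gave 26 (24 and 2), and Pef1 then read 1.89. With the label letter as a replicate block, 2 residual degrees of freedom gave 0 calls, 0 higher and 0 lower (1750 at an unadjusted p under 0.05). Pairing by letter was checked only by the correlations of same-letter pools given above. Cyclic loess raised the lower calls to 120. Causes were not tested beyond these constructions.

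Under offsets 4 times smaller and larger, the other filters, both quantile scalings, a common median, eBayes without a trend or robust, 1 probe per gene and without 88 bright probes, the total was 221 to 369. Of the 73 called probes named, 61 to 73 stayed called under these and cyclic loess, except that 7 were not tested with the filter at the array median, where 65 of 66 stayed called. Far fewer of the 73 stayed called elsewhere: 27 in the joint fit of 18 arrays, 12 with -1 as 0 and 0 with the letter block. Leaving out placebo pools A and B kept 4 and 0 of 72, and leaving out placebo pool C kept 4 of 73. Without testosterone pools A, B and C the numbers kept were 21, 2 and 73. The median of the endoplasmic reticulum list turned to -0.0355 and -0.0387 with quantile normalization within the gland and over 18 arrays, -0.0538 with cyclic loess, and -0.0616 and -0.0643 with those 2 scalings without pool C. The solute carrier median turned to -0.00262 and -0.00494 with the quantile scalings. The median of androgen-induced genes ran from -0.0888 to 0.0278 with 1 pool left out, above 0 without testosterone pool B. Those of the fibroblast and matrix list and of the fat cell list were 0.0225 and 0.0342 without testosterone pool C, and the former was 0.107 with array weights. The median of the class II MHC, macrophage and dendritic cell list ran from -0.242 to 0.0535 over the alternatives.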
